A study of Mus musculus with 16 samples.

Results

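Iron handling in macrophages was described through 10 genes that take up, store, release or sense iron: Trf, Tfrc, Slc11a2, Slc11a1, Fth1, Ftl1, Ncoa4, Slc40a1, Cp and Ireb2. The genes were listed by name, with earlier results of these data known. All 10 were found among the 47643 genes of the count files and passed the filter on low counts. The 16 libraries came from C57BL/6 wild-type mice and were made by QuantSeq, a method that counts the 3' ends of messenger RNA. Mice numbered 1, 2 and 4 in the labels each have 4 libraries, and equal numbers were taken as the same animal. BALF holds the cells washed out of the lung airways, PLF the cells washed out of the peritoneal cavity, BMDM macrophages derived from bone marrow, and mexAM alveolar macrophages kept in culture, so that each group has 3 libraries. A further 4 libraries are alveolar macrophages grown from 2 pooled lavages, of which pool 1 was taken at passage 8 and again at passage 13, and pool 2 at passage 5 and again at passage 10. No group carries a treatment or a modified gene in the labels. The passage of the mexAM cultures, the culture media, the ages of the mice and the number of mice in a pool were not stated in the labels.

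Macrophages take iron from transferrin through the transferrin receptor, and they also recover it from engulfed red cells by breaking down haem. Iron that is not used is kept inside ferritin, a shell built of heavy and light chains, or leaves the cell through ferroportin. Iron regulatory proteins bind a hairpin called the iron responsive element when iron is scarce. Bound near the start of a messenger RNA the proteins block its translation, and bound near its end they protect it from decay. Alveolar macrophages are known for large iron stores, since iron arrives with inhaled particles and with blood that leaks into the airways. Counts of RNA do not show the translational part of this control.

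The hairpin sequences are shown because they are the letters that iron regulatory proteins bind. Among the 10 genes, 4 held a hairpin of the classical form in an untranslated region: a C, 5 bases, the loop CAGTGN and 5 bases, with the bases on both sides of the loop pairing in order, read on the transcript strand. Each is given as 30 bases from GENCODE M21 transcripts (GRCm38), with the C and the loop in capitals. The 5' untranslated hairpins lie at chr19:9982732-9982761 (plus strand) for Fth1, chr7:45459778-45459807 (minus strand) for Ftl1 and chr1:45925464-45925493 (minus strand) for Slc40a1.
Fth1: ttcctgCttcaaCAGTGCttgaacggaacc
Ftl1: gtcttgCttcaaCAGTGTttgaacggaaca
Slc40a1: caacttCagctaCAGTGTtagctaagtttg
The 3' untranslated region of Tfrc held 4 such hairpins within chr16, plus strand, starting at 32631219, 32631598, 32631663 and 32631710.
Tfrc hairpin 1: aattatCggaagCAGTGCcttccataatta
Tfrc hairpin 2: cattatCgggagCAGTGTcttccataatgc
Tfrc hairpin 3: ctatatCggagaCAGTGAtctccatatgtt
Tfrc hairpin 4: aattatCgggaaCAGTGTttcccataattt
The pattern occurred in the 5' untranslated region of 31 of 21877 coding genes (0.142%) and in the 3' untranslated region of 129 (0.590%). It was not found in the other 6 genes, which says only that these letters are not in their annotated untranslated regions.

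Counts in genes ran from 827791 to 2884679 per library, so that 1 count is worth 0.347 to 1.21 CPM (counts scaled to a gene total of 1e6). Levels below are CPM of a library's gene total with the SD over libraries. Differences are log2 fold changes ± SE from edgeR's quasi-likelihood test after TMM scaling, and a gene is called where its Benjamini-Hochberg adjusted p over all tested genes is under 0.05. All 8 alveolar macrophage markers were counted in BALF and mexAM, where they summed to 8394 to 12396 and 5483 to 8843 CPM, against 281 to 466 CPM in PLF and BMDM. Most of the BALF sum was Chil3, at a mean of 8392 CPM. In mexAM against BALF, Chil3 and Itgax were called lower, Siglecf, Car4, Fabp1 and Marco higher, and Pparg and Krt79 not called. Itgax was not called between mexAM and BMDM. The 6 peritoneal macrophage markers summed to 4720 to 5239 CPM in PLF and to at most 14.7 CPM elsewhere. PLF also held RNA of other cells: 6 B cell markers summed to 2040 to 2398 CPM and 5 mast cell markers to 1875 to 2058 CPM. In BMDM 8 neutrophil markers summed to 1834 to 5090 CPM (at most 399.5 elsewhere, in mexAM). There 7 fibroblast and mesothelium markers summed to 100 to 299 CPM (at most 5.55 elsewhere) and 4 eosinophil markers to 16.5 to 79.1 CPM (at most 4.46 elsewhere). The B cell markers summed to 99.9 to 137 CPM in BMDM and to at most 12.1 CPM outside PLF and BMDM. The part of RNA of these other cells in the BMDM differences below was not tested. These are bulk libraries, in which fewer cells of a type and less RNA per cell cannot be told apart.

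**Figure D1:**
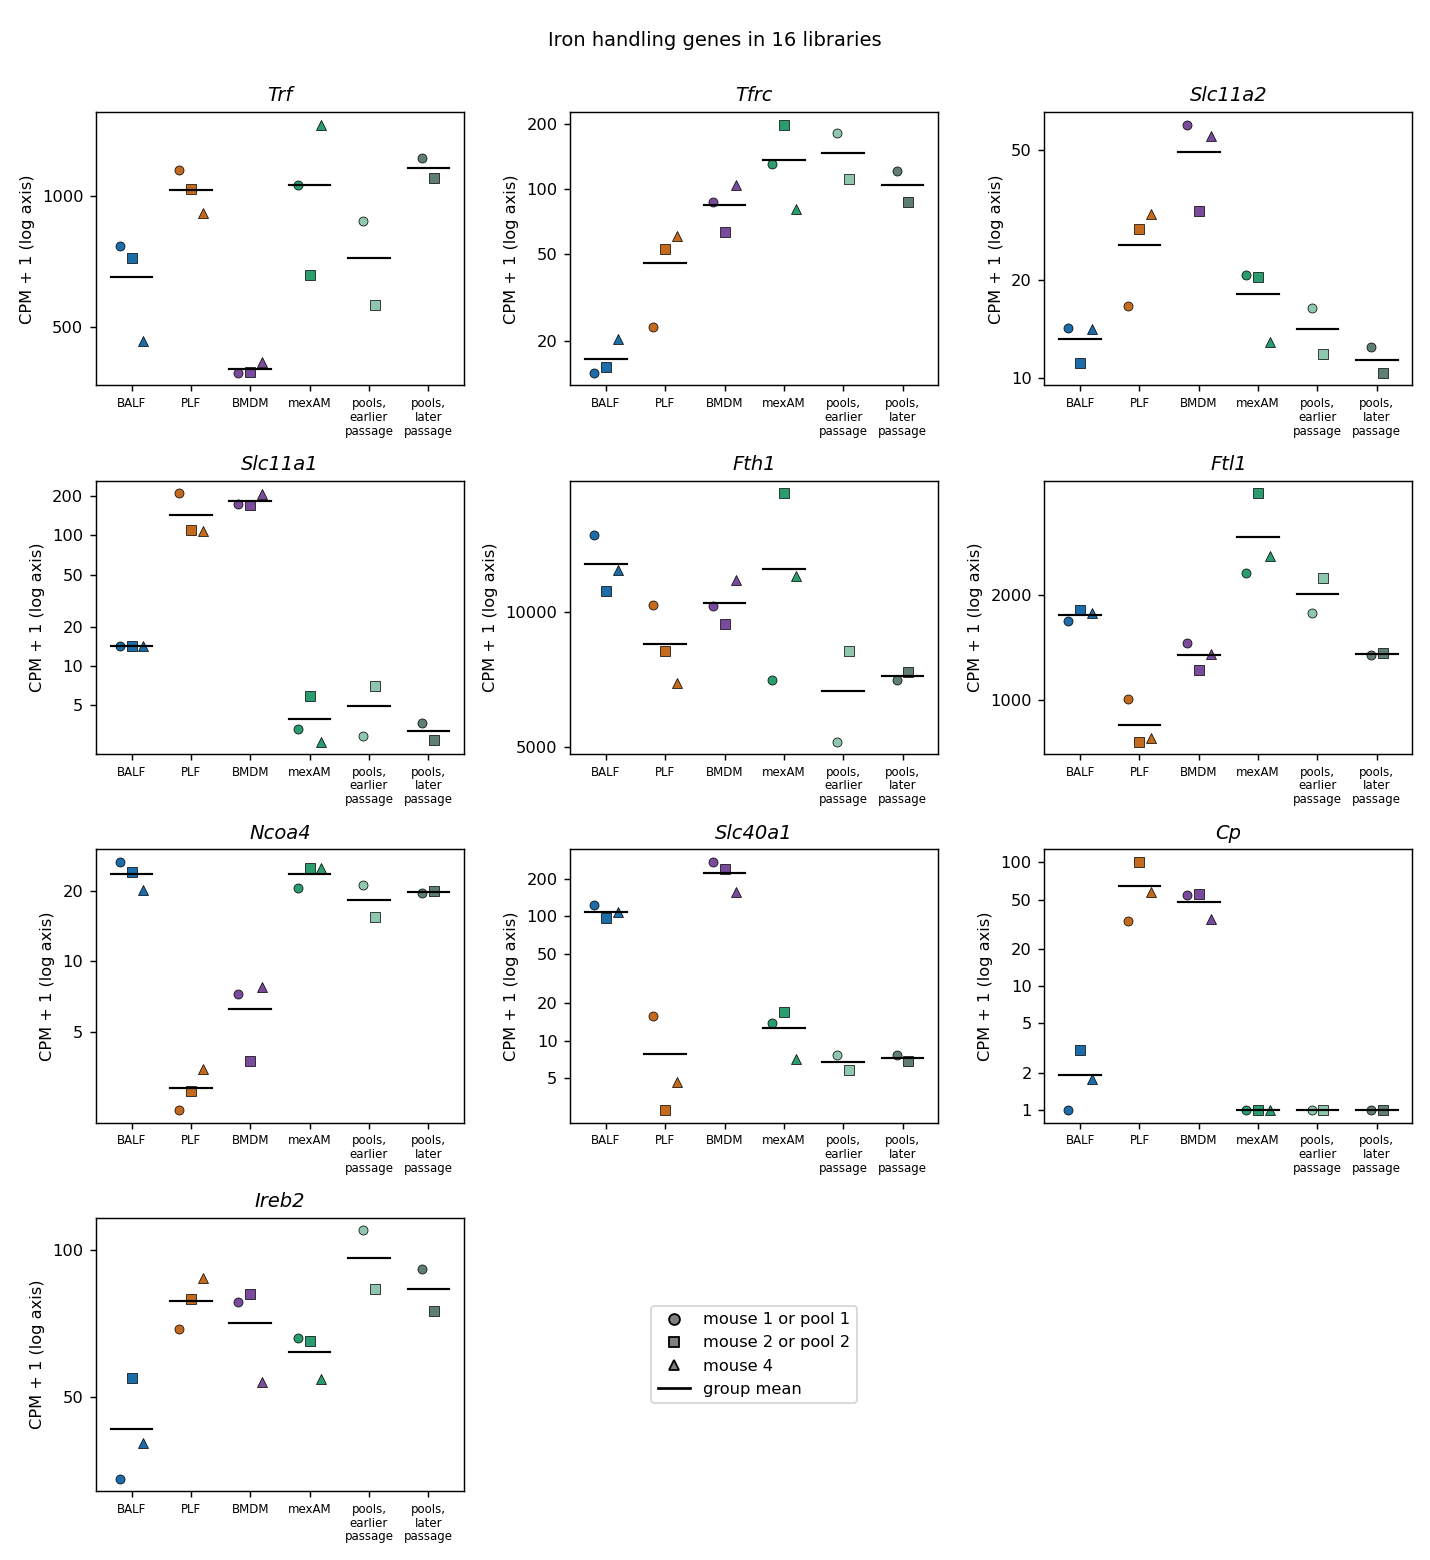
Level of each of the 10 genes in the 16 libraries, as CPM plus 1 on a log axis, by group. Symbols mark the mouse or pool and lines the group mean; Slc40a1 is above 90 CPM in BALF and BMDM alone, Cp above 30 CPM in PLF and BMDM alone, and Ncoa4 above 14 CPM in the lung-derived groups alone.

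Iron uptake began with Trf (chr9:103204001-103230444, GRCm38, minus strand), which encodes transferrin, the iron carrier of plasma. Trf was at 764, 720 and 463 CPM in BALF of mice 1, 2 and 4, and in PLF at 1144, 1034 and 912 CPM. It was at 392, 394 and 416 CPM in BMDM and at 1056, 658 and 1453 CPM in mexAM. BMDM was lowest with no overlap, and the PLF and mexAM libraries overlapped. Trf was lower in BMDM than in PLF by a log2 fold change of -1.40 ± 0.25 (adjusted p = 0.00031), higher in mexAM than in BMDM by 1.47 ± 0.25 (adjusted p = 0.000141) and higher in BALF than in BMDM by 0.98 ± 0.25 (adjusted p = 0.00514). The difference between mexAM and BALF was 0.49 ± 0.25 (adjusted p = 0.154), and it passed at 0.72 (adjusted p = 0.0313) without mexAM of mouse 2.

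Tfrc (chr16:32608920-32632794, plus strand), the transferrin receptor that brings loaded transferrin into the cell, was the only one of the 10 genes called higher in mexAM than in BALF. It was at 13.2, 14.2 and 19.3 CPM in BALF, at 22.1, 51.7 and 59.8 CPM in PLF, at 86.0, 62.4 and 103 CPM in BMDM and at 130, 197 and 79.9 CPM in mexAM. The earlier and the later passage held 181 and 120 CPM in pool 1 and 110 and 86.0 CPM in pool 2. Every BALF library lay below every other library, and mexAM overlapped with BMDM and with the pools. The log2 fold change was 2.92 ± 0.40 from BALF to mexAM (adjusted p = 6.77e-05), 1.68 ± 0.36 from PLF to mexAM (adjusted p = 0.000892) and -2.14 ± 0.40 from BMDM to BALF (adjusted p = 0.000587). Tfrc was lower in BALF than in PLF by -1.25 ± 0.42 (adjusted p = 0.0268), a call that failed when any of 4 libraries was left out, BALF of mouse 1 or 2 or PLF of mouse 2 or 4 (adjusted p = 0.0692 to 0.12).

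Dividing cells are known to carry more transferrin receptor, so the 13 proliferation markers were set beside Tfrc. They summed to 341 to 470 CPM in BALF, 332 to 452 in PLF, 267 to 728 in BMDM, 791 to 1087 in mexAM and 1278 to 2111 in the pools. In mexAM against BALF 8 of the 13 were called higher and none lower, where 30.0% of 10011 tested genes were called in either direction. The part of proliferation in the Tfrc difference was not tested.

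Slc11a2 (chr15:100387898-100425072, minus strand) encodes DMT1, which moves iron from the endosome into the cytosol. It was highest in BMDM, at 59.0, 31.5 and 54.5 CPM, against 15.6, 27.6 and 30.8 in PLF, 13.2, 10.2 and 13.1 in BALF and 19.8, 19.5 and 11.9 in mexAM. Slc11a2 was called higher in BMDM than in the 3 other groups of mice, with log2 fold changes of -1.68 ± 0.33 for BALF against BMDM (adjusted p = 0.000513), -1.44 ± 0.30 for mexAM against BMDM (adjusted p = 0.000739) and 0.95 ± 0.30 for BMDM against PLF (adjusted p = 0.0182). The last call was lost without BMDM of mouse 1 or 4 or PLF of mouse 1 (adjusted p = 0.06 to 0.0829). BALF and mexAM differed by 0.25 ± 0.35 (adjusted p = 0.626). The transcript forms of Slc11a2 with different 3' ends were counted together.

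Slc11a1 (chr1:74375195-74386062, plus strand) encodes NRAMP1, which carries iron and other divalent metals across the membrane of the phagosome. C57BL/6 mice carry a loss-of-function allele of it, so the transcript does not report transport. It stood at 173, 169 and 205 CPM in BMDM and at 209, 109 and 107 CPM in PLF, against 13.2, 13.2 and 13.1 CPM in BALF and 2.32, 4.87 and 1.65 CPM in mexAM. The BALF values rest on 22, 13 and 17 counts, and their closeness is finer than counting can resolve. The pools held 1.73 to 6.04 CPM, which overlapped with mexAM. Slc11a1 was lower in BALF than in PLF by a log2 fold change of -3.19 ± 0.33 (adjusted p = 6.79e-07), in mexAM than in BMDM by -5.85 ± 0.39 (adjusted p = 1.6e-09) and in mexAM than in BALF by -2.35 ± 0.46 (adjusted p = 0.00103). BMDM and PLF differed by 0.31 ± 0.27 (adjusted p = 0.395), which became 0.76 (adjusted p = 0.0141) without PLF of mouse 1.

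The ferritin genes gave the most counts. Fth1 (chr19:9980598-9985098, plus strand), the ferritin heavy chain with the iron-oxidising site, was at 14864, 11184 and 12420 CPM in BALF, 10364, 8186 and 6971 in PLF, 10326, 9411 and 11815 in BMDM and 7062, 18461 and 12054 in mexAM. The 4 pool libraries held 5148 to 8189 CPM. The mexAM libraries spanned the range of BALF and BMDM, and neighbours in the order of group means (BALF, mexAM, BMDM, PLF, pools) overlapped. Fth1 was called higher in BALF than in PLF (log2 fold change 0.84 ± 0.31, adjusted p = 0.0378) and lower in the pools than in BALF (-1.09 ± 0.34, adjusted p = 0.0216). The first call was lost with the mouse as a block (adjusted p = 0.0522), with scaling by library totals (0.59, adjusted p = 0.124) and without BALF of mouse 1 or 4 or PLF of mouse 2 or 4 (adjusted p = 0.0672 to 0.142). The second failed when BALF of mouse 1 or either pool was left out (adjusted p = 0.0667 to 0.171).

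Ftl1 (chr7:45457944-45459884, minus strand), the ferritin light chain that helps to lay down the mineral core, was called in more of the comparisons than the heavy chain. It was at 1688, 1815 and 1778 CPM in BALF, 2312, 3922 and 2587 in mexAM, 1462, 1220 and 1353 in BMDM and 1005, 761 and 779 in PLF. These 4 groups did not overlap with one another, in the order mexAM, BALF, BMDM, PLF, and the pools (1343 to 2247 CPM) overlapped with BALF and BMDM. Ftl1 was higher in mexAM than in BMDM by a log2 fold change of 1.22 ± 0.23 (adjusted p = 0.00033), in mexAM than in PLF by 1.84 ± 0.23 (adjusted p = 4.22e-06) and in BALF than in PLF by 1.29 ± 0.23 (adjusted p = 0.000232). The difference of mexAM from BALF was 0.54 ± 0.23 (adjusted p = 0.0829), and it passed with scaling by library totals (0.74, adjusted p = 0.0166) and without mexAM of mouse 1 (0.68, adjusted p = 0.0409). The calls in BMDM over PLF (0.62 ± 0.23, adjusted p = 0.0427; with the mouse as a block adjusted p = 0.06) and in BALF over BMDM (0.68 ± 0.23, adjusted p = 0.027) were lost without any of 5 libraries (all but PLF of mouse 1; adjusted p = 0.0622 to 0.152) and without any of the 6 libraries compared (adjusted p = 0.052 to 0.101). The second was also lost with scaling by library totals (0.39, adjusted p = 0.178).

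**Figure D2:**
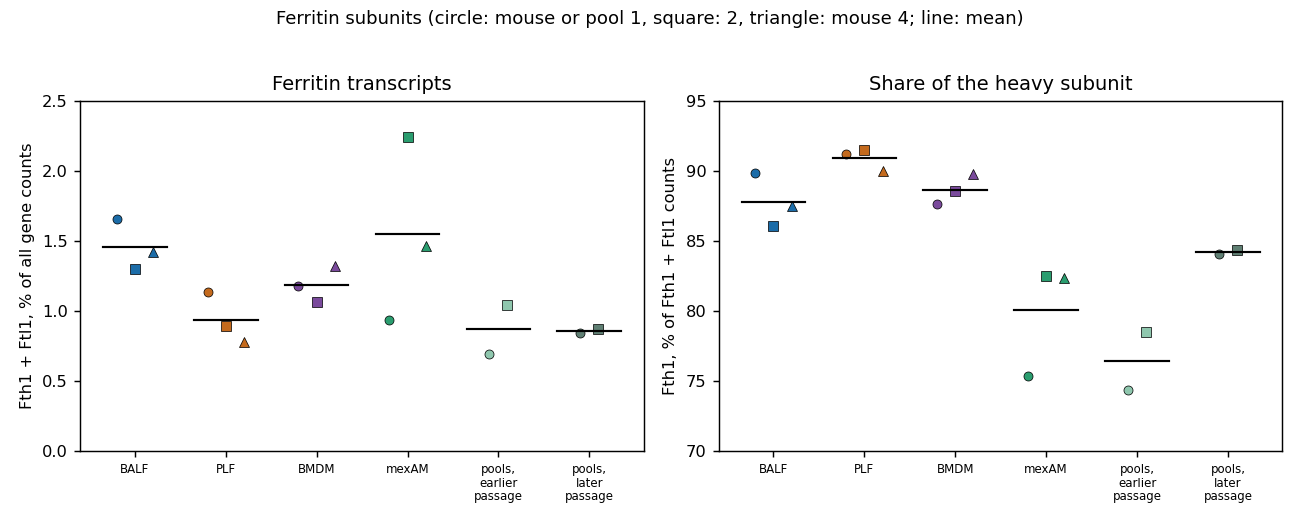
Fth1 and Ftl1 counts together as a percentage of all gene counts (left) and Fth1 as a percentage of those 2 genes' counts (right), by group, with the group mean as a line; the right axis starts at 70%. The mexAM and pool libraries lie between 74.4% and 84.3% Fth1 and every BALF, PLF and BMDM library at or above 86.0%.

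The balance of the chains was read within each library, as the percentage of Fth1 in the summed Fth1 and Ftl1 counts. It was 89.8%, 86.0% and 87.5% in BALF, 91.2%, 91.5% and 90.0% in PLF, 87.6%, 88.5% and 89.7% in BMDM and 75.3%, 82.5% and 82.3% in mexAM. The pools held 74.4% and 84.0% (pool 1, earlier and later) and 78.5% and 84.3% (pool 2, earlier and later). The exact 95% Clopper-Pearson intervals within a library reached from 73.3% to 84.8% over the cultured alveolar libraries and from 85.4% to 92.0% over the others, and cover counting error only. The difference in means was -7.72 percentage points between mexAM and BALF and -8.57 between mexAM and BMDM, each with an exact two-sided permutation p of 0.1, the smallest that 3 against 3 libraries allow (adjusted over 4 comparisons also 0.1). The other comparisons, BALF with PLF at -3.10 points and BMDM with PLF at -2.25, gave the same p of 0.1. Both chains together took 1.46% ± 0.18 of counts in BALF and 1.55% ± 0.65 in mexAM. The files name 13 further ferritin-like genes, which held 76 counts in all, against 311504 for Fth1 and Ftl1.

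Ncoa4 (chr14:32159865-32179855, plus strand) encodes the receptor that delivers ferritin to the lysosome, where its iron is freed. BALF held 25.8, 23.3 and 19.3 CPM, mexAM held 19.8, 24.3 and 24.3 CPM, and the pools held 14.5 to 20.2 CPM. BMDM held 6.29, 2.74 and 6.74 CPM and PLF 1.30, 1.78 and 2.47 CPM, the latter from 8 counts in all. Every lung-derived library was above every other library. Ncoa4 was higher in BALF than in PLF by a log2 fold change of 3.81 ± 0.40 (adjusted p = 7.13e-07) and in mexAM than in BMDM by 2.16 ± 0.31 (adjusted p = 2.23e-05). BALF and mexAM differed by -0.21 ± 0.27 (adjusted p = 0.591). BMDM was above PLF by 1.44 ± 0.48 (adjusted p = 0.0251), a call lost with DESeq2 (adjusted p = 0.0652) and without any of 4 libraries, BMDM of mouse 1 or 4 or PLF of mouse 1 or 2.

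Export turned on Slc40a1 (chr1:45908068-45926523, minus strand), which encodes ferroportin, the iron exporter of the cell surface. BALF held 121, 95.4 and 107 CPM of it, and BMDM held 272, 239 and 154 CPM. In PLF it was at 14.9, 1.78 and 3.70 CPM and in mexAM at 12.8, 16.1 and 6.18 CPM, and the pools held 4.83 to 6.74 CPM. BALF and BMDM stood apart from all other libraries, while PLF, mexAM and the pools overlapped. Slc40a1 was lower in mexAM than in BALF by a log2 fold change of -3.43 ± 0.44 (adjusted p = 4.53e-05) and in mexAM than in BMDM by -4.17 ± 0.44 (adjusted p = 1.98e-06). It was higher in BALF than in PLF by 4.14 ± 0.49 (adjusted p = 7.82e-06) and in BMDM than in PLF by 4.89 ± 0.49 (adjusted p = 2.11e-06). These 4 calls kept their direction and passed in every setting tried. The differences of mexAM against BALF and of BMDM against PLF thus had opposite signs, and the interaction test gave -8.31 ± 0.66 (adjusted p = 5.92e-07). BMDM and PLF are not a cultured and a fresh form of the same cells, so tissue and culture cannot be told apart between them.

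For Slc40a1 the comparison of mexAM with PLF hung on 1 library. The log2 fold change was 0.71 ± 0.56 (adjusted p = 0.29) with all libraries and 2.04 (adjusted p = 0.00592) without PLF of mouse 1, whose 23 counts made up most of the 31 in PLF. BALF and BMDM did not overlap, yet the difference of -0.74 ± 0.37 was not called (adjusted p = 0.131). It was called at -1.04 with scaling by library totals (adjusted p = 0.032), at -0.77 with every counted gene kept (adjusted p = 0.00563) and at -0.75 in a fit of these 2 groups alone (adjusted p = 0.00657). Red cell RNA was uneven in BALF: 7 erythroid markers summed to 34.8 to 633 CPM there and to at most 20.5 CPM elsewhere. With BALF of mouse 1, the library with the lowest sum, as the only BALF library, the log2 fold change of Slc40a1 from BALF to mexAM was -3.60. In BALF against PLF, Tfrc was at -1.48 and Fth1 at 1.05, and in BALF against BMDM Ftl1 was at 0.63. The calls of Tfrc, Fth1 and Ftl1 in these comparisons were lost in that fit. Its only BALF library is assumed to vary like the other groups. The part of red cell RNA was not tested.

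Cp (chr3:19957054-20009145, plus strand) encodes ceruloplasmin, a copper enzyme that oxidises iron after ferroportin has moved it out. It was counted in PLF at 32.5, 99.9 and 56.1 CPM and in BMDM at 53.7, 54.2 and 33.7 CPM. BALF held 0, 2 and 1 counts, and the 3 mexAM and 4 pool libraries held none. Against the limit of 3 counts over a group, Cp was at least 98.2-fold higher in BMDM than in mexAM and at least 122-fold higher in PLF than in mexAM. PLF exceeded BALF 77.7-fold (95% exact interval of the counts 26.3 to 379) and BMDM exceeded BALF 62.5-fold (21.1 to 305). The edgeR calls of these 4 differences had adjusted p between 2.53e-07 and 1.31e-05. PLF and BMDM overlapped and differed by a log2 fold change of -0.41 ± 0.35 (adjusted p = 0.385), and with BALF and mexAM both at or under 3 counts no fold is given. Hps3 overlaps Cp on the other strand, and the use of strand in counting was not stated. Hps3 held 25 to 36 counts per mexAM library and 19 to 56 per pool library, where Cp held 0. Per library it held 26 to 30 counts in BALF, 48 to 87 in PLF and 69 to 176 in BMDM. Whether reads of Hps3 were counted as Cp was not tested.

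Ireb2 (chr9:54863789-54912530, plus strand) encodes iron regulatory protein 2, which binds the hairpins above and is itself controlled by protein decay. It was at 33.0, 53.8 and 39.4 CPM in BALF, 68.1, 78.5 and 86.9 in PLF, 77.3, 80.2 and 52.7 in BMDM and 65.0, 64.2 and 53.5 in mexAM. The pools held 74.2 to 109 CPM. In the order of group means, which ran pools, PLF, BMDM, mexAM and BALF, neighbours overlapped, while BALF did not overlap with PLF or the pools, nor mexAM with PLF or the pools. Ireb2 was called lower in BALF than in PLF (log2 fold change -0.66 ± 0.23, adjusted p = 0.0282) and higher in the pools than in BALF (0.87 ± 0.24, adjusted p = 0.0111). The first failed when BALF of mouse 1 or 4 or PLF of mouse 4 was left out (adjusted p = 0.0619 to 0.131) and the second without BALF of mouse 1 or pool 1 (adjusted p = 0.0711 and 0.134).

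**Figure D3:**
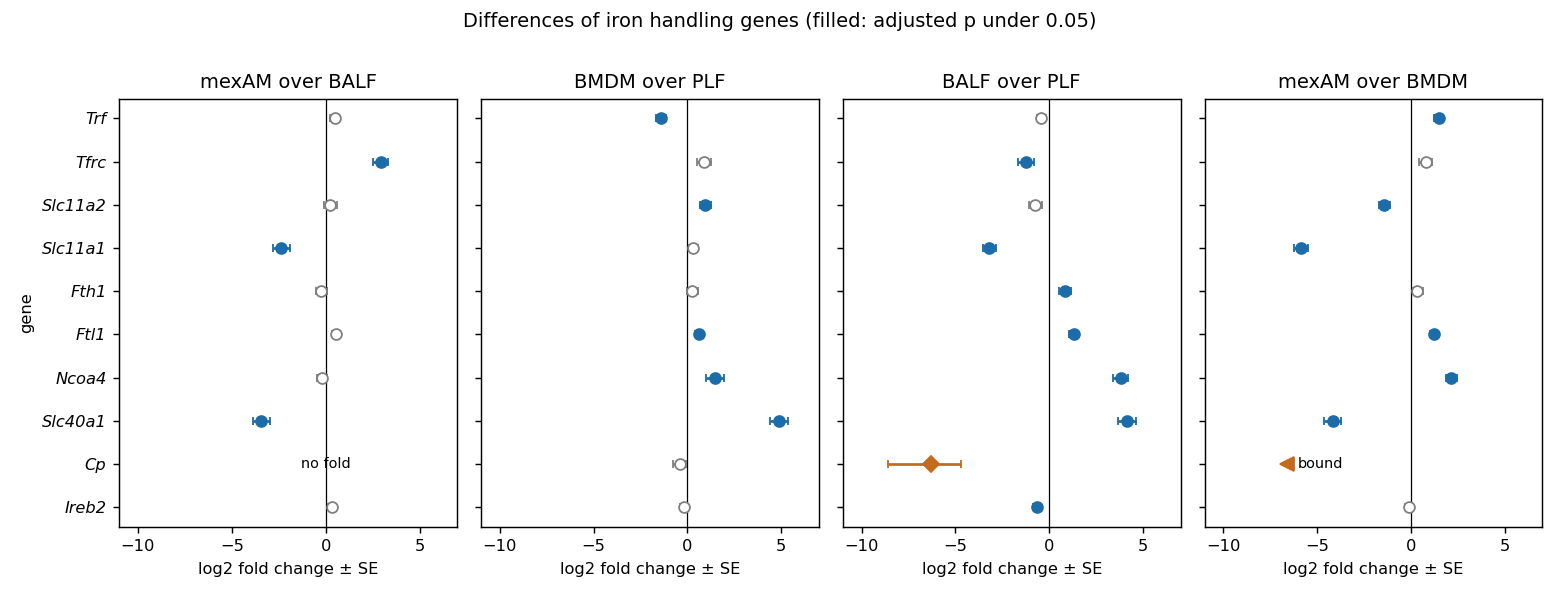
Log2 fold changes ± SE of the 10 genes in 4 comparisons of 3 libraries against 3, filled where the adjusted p is under 0.05. Orange marks Cp where a group has 3 counts or none: a diamond with the 95% exact interval of the counts, and a triangle for the bound; Cp has no fold between mexAM and BALF. Slc40a1 lies to the left for mexAM over BALF and over BMDM and to the right for BMDM and BALF over PLF.

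In cultured against freshly washed-out alveolar macrophages, the transcript of the transferrin receptor was higher, and those of ferroportin and NRAMP1 were lower. Of the 10 genes 1 was called higher (Tfrc) and 2 lower (Slc40a1 and Slc11a1) in mexAM than in BALF, where 30.0% of 10011 genes were called in either direction. The median log2 fold change was 0.25 over the 9 genes with a fold and 0.01 over all genes. With scaling by library totals Ftl1 and Trf were called as well, 5 of the 10, where 3317 of the 10011 genes were called. Of the genes of haem uptake, breakdown and export, 1 was called higher and 5 lower of 11 tested (14 listed, median -1.10). Hmox1, the enzyme that opens the haem ring and frees its iron, gave 10617, 11618 and 6385 CPM in BALF, and in mexAM 264, 262 and 322 CPM. Every BALF library was far above every mexAM library, with a log2 fold change of -5.28 ± 0.39 (adjusted p = 7.26e-08).

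Other haem genes differed between mexAM and BALF as well. Bach1, a haem-sensing repressor of Hmox1, was lower by -2.37 ± 0.35 (adjusted p = 0.000147), and Spic, a factor needed by red pulp macrophages that recycle iron, was higher by 2.79 ± 0.45 (adjusted p = 0.000186). Alas1, the first enzyme of haem synthesis, was at 610 ± 53.5 CPM in BALF and 113 ± 69.7 CPM in mexAM (log2 fold change -2.63 ± 0.37, adjusted p = 0.000102). In the list of sensors, chaperones and oxidases 2 of 7 tested were lower and none higher: Fbxl5, the iron-sensing part of the ligase that removes iron regulatory protein 2, by -2.53 ± 0.20 (adjusted p = 9.25e-08), and Pcbp2, an iron chaperone, by -0.81 ± 0.22 (adjusted p = 0.0105).

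Among 6 tested of 11 genes of iron entry and reduction, Slc39a8, a metal importer, was higher in mexAM than in BALF (18.8 ± 0.85 against 1.48 ± 1.29 CPM, log2 fold change 3.37 ± 0.57, adjusted p = 0.000278) and its relative Slc39a14 was lower (-1.40 ± 0.36, adjusted p = 0.00793). Of 19 tested mitochondrial iron and iron-sulfur genes 5 were higher and 1 lower. Abcb10, a transporter of the inner mitochondrial membrane, was at 102 ± 20.1 CPM in mexAM and 11.7 ± 2.48 in BALF (2.94 ± 0.27, adjusted p = 5.47e-07), and Slc25a28, a mitochondrial iron carrier, was lower by -1.40 ± 0.33 (adjusted p = 0.00439). Hepcidin, the hormone that removes ferroportin, has its genes Hamp and Hamp2 in the list of hepcidin control, but neither passed the filter on low counts. In that list 2 of 5 tested genes were higher, among them Id1, a target of BMP signalling (2.01 ± 0.35, adjusted p = 0.000576), and 2 were lower, among them Smad7 (-1.63 ± 0.37, adjusted p = 0.00334).

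**Figure D4:**
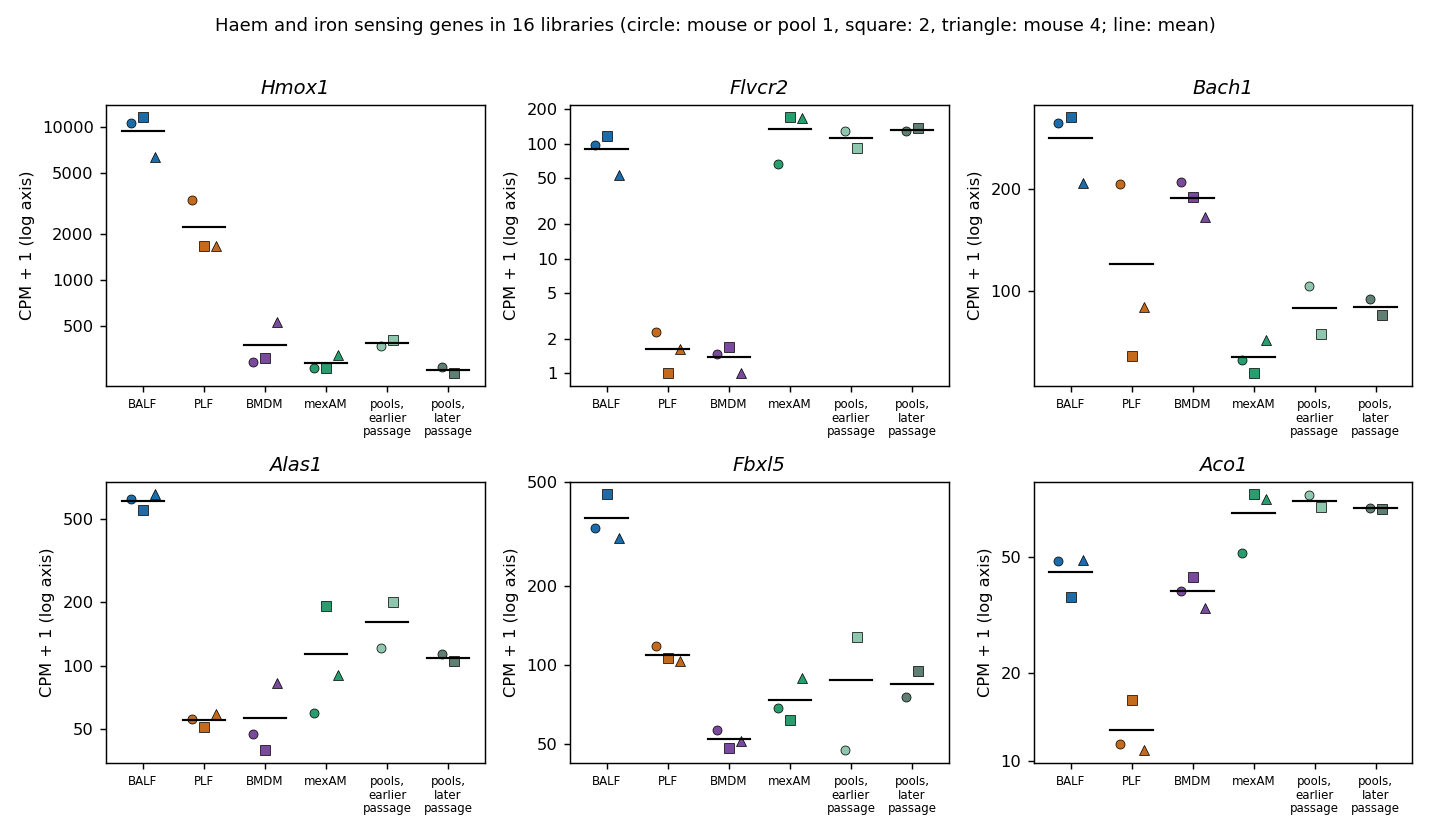
Levels of 3 haem genes (Hmox1, Flvcr2, Bach1), the haem synthesis gene Alas1 and 2 iron sensing genes (Fbxl5, Aco1) in the 16 libraries, as CPM plus 1 on a log axis, with the group mean as a line. Hmox1 and Fbxl5 are highest in BALF, and Flvcr2 is near 0 in PLF and BMDM and above 50 CPM in every lung-derived library.

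Between the freshly washed-out cells of lung and peritoneum, the transcripts of Ftl1, Ncoa4 and Slc40a1 were higher in the lung and those of Slc11a1 and Cp were lower in every setting tried. Of the 10 genes 4 were called higher (Fth1, Ftl1, Ncoa4 and Slc40a1) and 4 lower (Tfrc, Slc11a1, Ireb2 and Cp) in BALF than in PLF, against 40.3% of all tested genes. The median was -0.54, and -0.01 over all genes. Without BALF of mouse 1 or PLF of mouse 4, 5 of the 10 were called. Of 11 tested haem genes 8 were higher and 1 lower. Hmox1 was higher by 2.33 ± 0.34 (adjusted p = 3.6e-05), with 3327, 1661 and 1669 CPM in PLF, all below BALF. Blvra, a biliverdin reductase, was higher by 2.74 ± 0.20 (adjusted p = 1e-08), and Hp, the haemoglobin-binding haptoglobin, was lower by -5.61 ± 0.67 (adjusted p = 1.18e-05).

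Flvcr2, a membrane transporter of the FLVCR family, marked the lung-derived cells. BALF held 96.7, 117 and 52.5 CPM and mexAM 66.2, 169 and 168 CPM, with 3 counts over the PLF libraries and 2 over the BMDM libraries. BALF exceeded PLF 124.5-fold (95% exact interval of the counts 42.2 to 607) and mexAM exceeded BMDM 361-fold (99.7 to 2988). All 4 called haem synthesis genes were higher in BALF than in PLF, led by Alas1 at 3.74 ± 0.40 (adjusted p = 2.68e-06). Aco1, which doubles as iron regulatory protein 1, and Fbxl5 were higher by 2.17 ± 0.28 (adjusted p = 6.54e-06) and 1.98 ± 0.20 (adjusted p = 3.53e-07). Slc25a37, a mitochondrial iron importer, was lower by -2.77 ± 0.28 (adjusted p = 4.75e-07). Mcoln1, a lysosomal channel, was the one call among 6 tested entry genes (1.81 ± 0.44, adjusted p = 0.00293). All 6 B cell markers and all 5 mast cell markers were lower in BALF than in PLF, and their part in these differences was not tested.

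Macrophages derived from bone marrow held more Slc40a1 transcript than peritoneal cells and less Trf transcript in every setting tried. Of the 10 genes 4 were called higher in BMDM than in PLF (Slc40a1, Ncoa4, Slc11a2 and Ftl1) and 1 lower (Trf), against 36.5% of all tested genes. The median was 0.46, and 0.01 over all genes. Without BMDM of mouse 1 or of mouse 4, 2 of the 10 were called, and without PLF of mouse 2, 3. Hmox1 was lower in BMDM by -2.62 ± 0.34 (adjusted p = 1.71e-05), at 287, 309 and 530 CPM. Hfe, a partner of the transferrin receptor in iron sensing, was higher by 1.55 ± 0.26 (adjusted p = 0.000129), and Smad7 was lower by -3.07 ± 0.33 (adjusted p = 1.54e-06). Lcn2, which binds bacterial iron carriers, was higher by 5.41 ± 0.61 (adjusted p = 6.78e-06). Lcn2 is also made by neutrophils, whose 5 tested markers were all higher in BMDM. Their part was not tested.

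The cultured cells of lung and marrow differed at most points of the list. In mexAM against BMDM 3 genes were called higher (Trf, Ftl1 and Ncoa4) and 4 lower (Slc40a1, Slc11a1, Slc11a2 and Cp), against 44.6% of all tested genes. The median was 0.11, and -0.00105 over all genes. Hmox1 did not pass (-0.34 ± 0.33, adjusted p = 0.429), and its libraries overlapped. Of 19 tested mitochondrial iron and iron-sulfur genes 12 were higher and 2 lower, led by Abcb10 (3.26 ± 0.26, adjusted p = 2.24e-08) and Lyrm4, a part of the iron-sulfur assembly complex (2.10 ± 0.26, adjusted p = 4.28e-06). Hfe was lower in mexAM by -3.85 ± 0.30 (adjusted p = 1.13e-08). Id1 was higher by 6.14 ± 0.48 (adjusted p = 4.23e-08), and Bmp2, a BMP ligand, was 96.2-fold higher in BMDM (95% exact interval of the counts 26.2 to 801). The proliferation markers, 9 of 13 of them called higher in mexAM, and the 5 tested neutrophil markers, all called lower, moved with this comparison. Their part was not tested.

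The crosswise comparisons share libraries with those above. Against BMDM, BALF had 3 of the 10 genes higher (Ftl1, Trf and Ncoa4) and 4 lower (Tfrc, Slc11a1, Slc11a2 and Cp), with 37.4% of all genes called. Against PLF, mexAM had 3 higher (Ftl1, Tfrc and Ncoa4) and 2 lower (Slc11a1 and Cp), with 57.9% of all genes called. Hmox1 was higher in BALF than in BMDM by 4.95 ± 0.38 (adjusted p = 3.48e-08) and lower in mexAM than in PLF by -2.95 ± 0.35 (adjusted p = 2.31e-06).

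Averaged over both cultured and both fresh groups with equal weight, Ftl1 (0.58 ± 0.16, adjusted p = 0.00871), Tfrc (1.91 ± 0.27, adjusted p = 6.07e-05) and Slc11a2 (0.60 ± 0.23, adjusted p = 0.0445) were called higher in culture and Slc11a1 (-1.02 ± 0.27, adjusted p = 0.00592) and Trf (-0.46 ± 0.18, adjusted p = 0.0468) lower, with 40.7% of all genes called. With the mouse as a block the calls of Slc11a2 (adjusted p = 0.0581) and Trf (adjusted p = 0.0591) were lost, as was each without any of 9 libraries. Of 19 settings, Slc11a2 kept its call in 8 and Trf in 7. Slc40a1, at 0.73 ± 0.33 (adjusted p = 0.0942), was called at 1.39 (adjusted p = 0.00201) without PLF of mouse 1. Its average joins calls of opposite sign, lower in mexAM than in BALF and higher in BMDM than in PLF. Within these parts, Tfrc and Slc11a1 passed only in mexAM against BALF, and Ftl1, Slc11a2 and Trf only in BMDM against PLF. The mean of Trf was higher in mexAM than in BALF. The BMDM against PLF part also differs in tissue of origin. Lung origin was also set against the other origins, averaged over cultured and fresh groups. Fth1, Ftl1, Trf and Ncoa4 were called higher and Slc11a1, Slc11a2, Ireb2 and Cp lower in the lung-derived groups, with 51.9% of all genes called. Trf was called higher in mexAM than in BMDM, while its mean was lower in BALF than in PLF. Ncoa4 (2.98 ± 0.25, adjusted p = 2.83e-08), Slc11a1 (-4.52 ± 0.26, adjusted p = 1.62e-10), Ftl1 (1.26 ± 0.16, adjusted p = 5.07e-06), Cp and Slc11a2 kept the call in every setting tried. Fth1 (0.59 ± 0.22, adjusted p = 0.0304), Trf (0.52 ± 0.18, adjusted p = 0.02) and Ireb2 (-0.39 ± 0.16, adjusted p = 0.0457) did not, and kept it in 12, 15 and 10 of 19 settings. The calls of Fth1 and Trf were lost with scaling by library totals (adjusted p = 0.104 and 0.105), among other settings. That of Ireb2 was lost without any of 8 libraries. Without BALF of mouse 1 or PLF of mouse 4, 5 of the 10 were called.

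Whether culture changed the genes alike in both origins was tested as an interaction, mexAM over BALF minus BMDM over PLF. Of the 10 genes 5 were called, against 21.0% of all tested genes: Tfrc (2.03 ± 0.54, adjusted p = 0.0133) and Trf (1.89 ± 0.36, adjusted p = 0.000932) toward the lung side, and Slc40a1, Slc11a1 (-2.66 ± 0.53, adjusted p = 0.00161) and Ncoa4 (-1.66 ± 0.55, adjusted p = 0.0408) toward the other side. The Ncoa4 call was lost with the mouse as a block (adjusted p = 0.0631), with scaling by library totals, with DESeq2, with every counted gene kept and without any of 9 libraries. Hmox1 was lower in the cultured group of both origins, with a larger difference in the lung (interaction -2.67 ± 0.47, adjusted p = 0.000573). PLF and BMDM are not a fresh and a cultured form of the same cells, which limits what the interaction compares.

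The pool cultures came from separate lavages. None of the 10 genes was called between the pools, with the passages of a pool summed, and mexAM by edgeR, where 0.698% of 10602 genes were called. An unadjusted p under 0.05 was reached by 3 of them (Ftl1, Fth1 and Ireb2). Ftl1 was at -0.93 ± 0.25 (adjusted p = 0.0783) and was called with DESeq2 (adjusted p = 0.0102). With every counted gene kept, Ftl1 (adjusted p = 0.00706) and Fth1 (-0.85, adjusted p = 0.0198) were both called lower in the pools. Against BALF, 2 genes were called higher in the pools (Tfrc at 2.72 ± 0.43, adjusted p = 0.000249, and Ireb2) and 3 lower (Slc40a1 at -4.33 ± 0.52, adjusted p = 2e-05, Slc11a1 at -2.54 ± 0.48, adjusted p = 0.000711, and Fth1), with 26.0% of all genes called. Without BALF of mouse 1 or pool 1, 3 of the 10 were called. Hmox1 was at 366 and 266 CPM in pool 1 and 401 and 243 CPM in pool 2, below every BALF library.

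None of the 10 genes was called between the later and the earlier passages, where 0.00950% of 10527 genes were called by edgeR, a single gene, although 947 genes, 1 of the 10 (Ftl1) among them, had an unadjusted p under 0.05. DESeq2 called none of the 10 either. Ftl1 was at 1776 and 1343 CPM in pool 1 and 2247 and 1367 CPM in pool 2 at the earlier and later passage, a log2 fold change of -0.65 ± 0.27 (adjusted p = 0.487). Trf was at 876 and 1218 CPM in pool 1 and 560.5 and 1094 CPM in pool 2 (0.61 ± 0.31, adjusted p = 0.582). Ftl1 was lower and Trf higher at the later passage in both pools, and 2 pools are too few for more than this description.

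Genes alike in pattern were named for each member with at least 50 CPM in a group, by Pearson's r of log2 CPM over all 16 libraries among 3431 genes of at least 50 CPM on average. The points share libraries, depth and group differences, so r is a description. Nearest to Slc40a1 were Lpin2 (0.97), Rab7b (0.93) and Fnip2 (0.93), and nearest to Slc11a1 were Il7r, Ninj1 and Pla2g7 (all 0.98). Cp was nearest to St8sia4 (0.99), Ifi203 and C1qb (both 0.98), and Tfrc to Efcab14 (0.92), Frrs1 (0.90) and C5ar1 (0.88). Ftl1 was nearest to Tyrobp (0.91), Ctsd (0.91) and Cox4i1 (0.90). Among the nearest genes of Fth1 were Faim (0.76) and Keap1 (0.75). Trf (Chsy1, Irs2 and Fosl2) and Ireb2 (Cnot6, Tbl1xr1 and Pura) lay between, at 0.80 to 0.88.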

How the data were processed

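RNA was measured by QuantSeq 3' sequencing with a module for molecular identifiers in 16 libraries, per the labels' protocols. The authors' deposited files hold raw counts per Ensembl gene, 1 file per library. The build is GRCm38 (mm10), per the submitters' processing notes. For the aligner, counting program, strand setting and collapsing of identifiers, the entry is not given in the sources used here. Reads outside genes, 10.6% to 29.9% of those counted, stayed out of totals. Names, positions and hairpins came from GENCODE M21. Hjv was matched as Hfe2.

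The 10 genes, the gene lists and the tests were chosen with earlier results of these data known. Low genes were removed by filterByExpr, totals scaled by TMM, and genes tested with edgeR 4.0.16 (robust quasi-likelihood) in R 4.3.3. Fits held 12 libraries (10011 genes, 8 residual degrees of freedom), 14 columns with the passages of a pool summed (10602 genes, 9) or 16 libraries (10527 genes, 10). A pool comparison borrows its spread mostly from the groups of mice. The Benjamini-Hochberg adjustment ran over all tested genes, with a threshold of 0.05. Levels are CPM of library totals, and fold changes use TMM-scaled totals. Where a group had no count the fold is a bound against 3 counts over the group. With 1 to 3 counts it is a ratio with its exact interval. Alternatives were other scalings, DESeq2 1.42.0, other filters, fewer libraries and the mouse or pool as a block.

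The labels give the same mouse numbers across cell types. Same-mouse correlations of deviations from group means ran from -0.118 to 0.220 (median -0.0207), and 2 of 18 exceeded 0.1. The named genes are the 10 members in each comparison and Hmox1. From each other iron list they are up to 3 called genes with the largest fold and at least 10 CPM in the higher group, in 4 comparisons. A selection of these is given, and some genes named by these rules are not reported here.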

Additional observations from a re-analysis of the deposited data

Results flagged for a closer look

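The differences of mexAM over BALF and of BMDM over PLF were unlike by the interaction test for 5 of the 10 genes, where 21.0% of all tested genes were called. The difference of the log2 differences was -8.31 for Slc40a1, 2.03 for Tfrc, -2.66 for Slc11a1, 1.89 for Trf and -1.66 for Ncoa4. Slc40a1 was lower in cultured than in fresh lung cells and higher in BMDM than in PLF, with no overlap of libraries in either. Trf was lower in BMDM than in PLF with no overlap, while its difference between mexAM and BALF was not called and the libraries overlapped. BMDM and PLF are not a cultured and a fresh form of the same cells, so tissue and culture cannot be told apart between them. No explanation was tested.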

How the results depend on the processing

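Of 58 calls of the 10 genes over 12 comparisons, 43 passed in every setting tried. Leaving out 1 replicate at a time gave 840 values, of which 78 lost a call, 13 gained one and 29 changed sign, and the other settings gave 825, with 21 lost, 21 gained and 6 of the other sign. No call changed sign.

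With scaling by library totals 5 genes were called in mexAM against BALF (3 as reported), and Ftl1 in the interaction was at 0.0775. That scaling moved the median of all genes by over 0.1 in 7 comparisons: to 0.217 for mexAM against BALF (67.4% of calls higher, 50.6% as reported), -0.266 for BALF against PLF (33.1%, 48.4%), -0.316 for BALF against BMDM (30.5%, 48.5%), 0.13 for culture (62.8%, 50.8%), -0.188 for lung (37.6%, 48.8%), 0.175 for the interaction (55.9%, 44.5%) and 0.202 for pools against BALF (67.7%, 52.4%). In pools against mexAM 1 gene was called with DESeq2 and 2 with every counted gene kept (0 as reported). Fth1 in culture against fresh was at -0.00432 with relative log expression and with DESeq2, and Slc40a1 between passages was at -0.0213 and -0.011. With the mouse as a replicate block 3 genes were called in culture against fresh (5 as reported), and Slc40a1 in lung against other was at 0.0354. The block ended 5 calls, given beside their results, and no other call. The cause of these changes was not tested.

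Without 1 replicate, the number called ran from 5 to 9 in BALF against PLF, 2 to 5 in BMDM against PLF, 3 to 6 in culture against fresh, 5 to 8 in lung against other and 3 to 5 in pools against BALF. Log2 fold changes that changed sign, none of them called, were those of Fth1 in culture against fresh (-0.197 to 0.147), in mexAM against BALF (-0.659 to 0.0411), in mexAM against BMDM (-0.0819 to 0.609) and between passages (-0.269 to 0.433). Others were Slc40a1 in lung against other (-0.211 to 0.65), Ftl1 in the interaction (-0.37 to 0.0696), Trf in mexAM against PLF (-0.193 to 0.306) and Cp in BMDM against PLF (-0.708 to 0.0202). In pools against mexAM they were Tfrc (-0.569 to 0.162), Slc11a1 (-0.548 to 0.392) and Trf (-0.287 to 0.224), and between passages Slc40a1 (-0.169 to 0.274), Slc11a1 (-1.59 to 0.0556) and Ncoa4 (-0.148 to 0.299).

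Ncoa4 in PLF, Slc11a1 in mexAM and Cp in BALF rest on few counts per library, and whether reads were collapsed by molecular identifiers is not given in the sources used here. With 3 libraries per group of mice, the edgeR p-values set differences against a spread between libraries estimated over all groups of a fit.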
